A study of Mus musculus with 5 samples.

Results

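S100 proteins are small calcium-binding proteins, and 9 of their genes were examined here, S100a1, S100a3, S100a4, S100a6, S100a10, S100a11, S100a13, S100a16 and S100b. They were read by the 12 non-control probes whose gene name in the array files equals one of these symbols, out of 55681 probes on the array, of which the named ones cover 21727 genes. The genes were picked with their levels in these same samples already known, so their differences between cell types are given as a description, with no p-value and with counts of calls from which nothing is read. The mouse samples were chemically induced neural progenitor cells (ciNPC) at passage 13 (p13, 2 arrays) and passage 5 (p5, 1 array), neural progenitor cells taken from brain (NPC, 1 array, the control for identity) and mouse embryonic fibroblasts (MEF, 1 array). The series title describes the ciNPC as made with chemical cocktails and hypoxia. Labels name no strain, age, embryonic stage or added transgene, and they do not say whether the arrays came from separate cultures, so each p-value speaks only for the scatter of these arrays, part of which may be technical.

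S100 proteins form dimers in which each subunit carries a pair of EF-hand loops. Calcium binding opens a hydrophobic face that takes up a target protein, most often an annexin, a cytoskeletal protein or an enzyme, and S100a10 is the family member that holds the open shape without calcium. Some members are released from cells and bind receptors such as the one encoded by Ager. In brain, S100b is best known from astrocytes, whereas S100a4 and S100a6 are known from fibroblasts and other motile or proliferating cells. Most mouse S100 genes lie in a cluster on chromosome 3.

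3 of the probes are shown because they hold the stretch in which members of the family resemble each other, and because S100a6 and S100a4 carry the largest differences described below. Capitals mark the bases that a probe shares with the S100a6 probe in an unbroken run. The sequences are those of the deposited array files, on the strand of the gene, with mm9 coordinates (chr3:90418160-90418219 on the plus strand, chr3:90409734-90409793 on the plus strand and chr3:90315191-90315250 on the minus strand, in the order printed).
S100a6: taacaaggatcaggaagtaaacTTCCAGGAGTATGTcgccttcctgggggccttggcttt
S100a4: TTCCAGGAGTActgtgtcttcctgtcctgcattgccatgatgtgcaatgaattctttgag
S100a1: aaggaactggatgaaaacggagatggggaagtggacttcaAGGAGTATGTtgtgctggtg
The S100a4 probe shared 11 bases with the S100a6 probe and the S100a1 probe shared 10. Over all 63 pairs of member probes of different genes, 11 of 60 bases was the longest shared run. S100a1, S100a4 and S100a16 had a pair of probes each, and the leading probe of a gene is the one with the higher mean level over the 5 arrays. The S100a1 probe printed here is the leading one, and the S100a4 probe printed here is the other one.

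Levels are log2 processed spot intensities scaled so that the 75th percentile of each array lies at 0, and levels are compared only between samples of 1 probe. All 12 probes were well above background on all 5 arrays and 0 were saturated. The share of non-control spots well above background was 47.9%, 54.1% and 49.1% on the arrays of ciNPC p13 replicate 1, p13 replicate 2 and p5, 55.2% on NPC and 57.6% on MEF. The number of arrays limits the precision. Each ciNPC mean and SD, and the fit of 3 cell types, pool the 2 p13 arrays with the p5 array. Their spread therefore includes any difference between passages. The MEF and NPC arrays came from one slide and scan and the 3 ciNPC arrays from another, so slide and cell type cannot be told apart where ciNPC are set against the other cells. The contrast of NPC with MEF, like that of p13 with p5, stayed on a single slide. Of the fibroblast markers, 6 of 12 were well above background in NPC and 12 of 12 in MEF, and of the neural progenitor markers 12 of 12 in NPC and 5 of 12 in MEF. In ciNPC, 12 of 12 of each list were above background on each array. The summed level of the fibroblast markers was 193, 178 and 244 in ciNPC p13 replicate 1, p13 replicate 2 and p5, against 3.83 in NPC and 1820 in MEF. Such a sum is carried by the brightest genes. The median log2 level of the list was 1.93, 1.94 and 2.28 in ciNPC, against -4.05 in NPC and 5.78 in MEF. In bulk RNA, fewer cells of a type and less RNA per cell cannot be told apart.

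MEF gave the highest reading throughout. Every one of the 12 probes read lower in NPC than in MEF, which held for 52.8% of the 35611 probes tested, and every ciNPC array read below MEF for all 12, which held for 39.4%. Against NPC the genes parted. For 8 probes (S100a1, S100a4, S100a6, S100a11, S100a13 and S100a3) all ciNPC arrays lay between NPC and MEF, against 12.1% of probes tested. Both S100a16 probes had every ciNPC array below NPC, and for S100a10 and S100b the ciNPC arrays lay on both sides of NPC. Under other scalings the mean difference of S100a10 and S100b from NPC, which was -0.03 and 0.04, changed sign. The median difference over all probes tested was -0.096 against MEF and -0.119 against NPC.

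**Figure D1:**
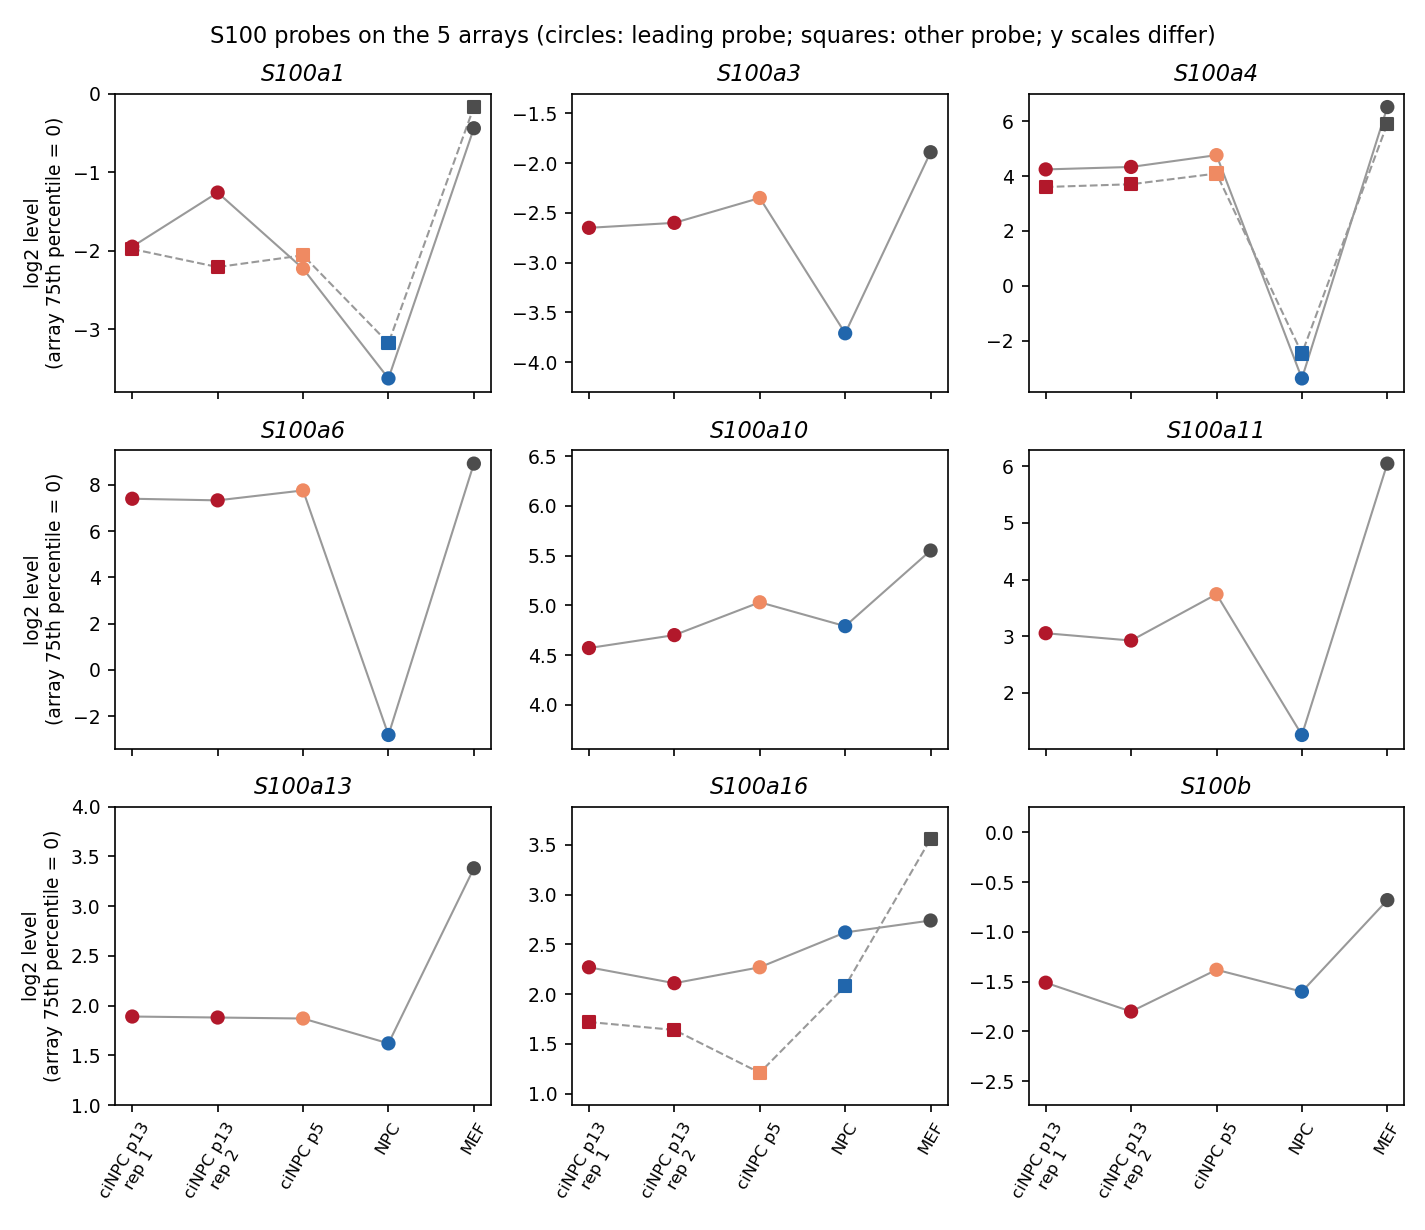
Log2 level (array 75th percentile at 0) of each member on the 5 arrays, 1 panel per gene with its own y scale; circles are leading probes, squares are other probes, and lines only join the points of a probe. S100a6 and S100a4 are far lower on the NPC array (-2.82 and -3.37 by the leading probe) than on any other, whereas S100a10 ranges from 4.57 to 5.55 and S100b from -1.80 to -0.68.

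S100a6 (calcyclin), which binds annexins and the ubiquitin ligase adaptor encoded by Cacybp, showed the widest range of the 9 genes over the arrays. Its probe gave levels of 7.40, 7.33 and 7.76 in ciNPC p13 replicate 1, p13 replicate 2 and p5, against -2.82 in NPC and 8.92 in MEF. All 3 ciNPC arrays were high and near MEF, and NPC stood apart from every other array. The ciNPC mean of 7.50 ± 0.23 (SD, n = 3) was 10.32 log2 units above NPC, a 1277-fold ratio, and 1.42 below MEF, or 37.3% of the MEF signal. The NPC signal was 0.0292% of that in MEF. The ratios to NPC rest on 1 dim reading, as the lowest NPC signal well above background was -4.44. On a scale on which MEF is 0 and NPC is 1 in log2 units, ciNPC stood at 0.121 ± 0.020 (SD, n = 3). After quantile normalisation the difference from MEF was -0.90, and with normexp background correction added it was -0.87, both under the 2-fold limit. The difference from NPC was 10.27 and 9.23 under the same settings.

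S100a4, known as metastasin or fibroblast-specific protein, binds the heavy chain of non-muscle myosin. Its leading probe (chr3:90409908-90409967, mm9) gave levels of 4.24, 4.33 and 4.76 in ciNPC p13 replicate 1, p13 replicate 2 and p5, against -3.37 in NPC and 6.51 in MEF. The ciNPC arrays were again high and the NPC array low, with no overlap between the ciNPC range and either neighbour. The mean of 4.44 ± 0.28 (SD, n = 3) was 225-fold above NPC and 23.9% of MEF. The other probe, whose sequence is printed above, gave 3.60, 3.70 and 4.09 in ciNPC, against -2.46 in NPC and 5.90 in MEF. Its ciNPC mean was 76.7-fold above NPC and 23.3% of MEF, so the probes gave nearly the same share of MEF and differed in the fold over NPC. The position between MEF and NPC was 0.209 for the leading probe and 0.251 for the other. These positions and the folds over NPC rest on dim readings of 1 NPC array. The difference of ciNPC from NPC by the leading probe was 7.81 log2 units, 7.63 after quantile normalisation and 6.25 with normexp background correction and quantile normalisation together.

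S100a11 (calgizzarin), a partner of annexin A1 in membrane and cytoskeletal contacts, was the member with the lowest ciNPC signal relative to MEF. Its probe (chr3:93330022-93330081, mm9) gave levels of 3.05, 2.92 and 3.74 in ciNPC p13 replicate 1, p13 replicate 2 and p5, against 1.25 in NPC and 6.05 in MEF. The ciNPC arrays sat near the middle, above NPC and below MEF without overlap. The mean of 3.24 ± 0.44 (SD, n = 3) was 14.2% of MEF and 3.97-fold above NPC, and the NPC signal was 3.57% of MEF. Its position was 0.586 ± 0.091, further toward NPC than those of S100a6 and S100a4, whose ciNPC arrays stood between 0.0986 and 0.275 on that scale.

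S100a10, the light chain of the annexin A2 tetramer, differed little between ciNPC and NPC. Its probe (chr3:93368437-93368496, mm9) gave levels of 4.57, 4.70 and 5.03 in ciNPC p13 replicate 1, p13 replicate 2 and p5, against 4.79 in NPC and 5.55 in MEF. The NPC value fell inside the ciNPC range, and MEF lay above it. The ciNPC mean of 4.77 ± 0.24 (SD, n = 3) was 57.9% of MEF, and NPC was 59.0% of MEF. S100a10 and S100a11 are near neighbours on the chromosome, and their patterns over the arrays were 1.29 log2 units apart (root mean square after centring), against 0.972 for S100a6 and S100a4, which also lie close together.

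S100a1, best known from heart and skeletal muscle, where it acts on calcium release and uptake, was dim. The leading probe gave levels of -1.95, -1.26 and -2.23 in ciNPC p13 replicate 1, p13 replicate 2 and p5, against -3.63 in NPC and -0.44 in MEF. The other probe (chr3:90314959-90315018, minus strand, mm9) gave -1.98, -2.21 and -2.06 in ciNPC, against -3.18 in NPC and -0.17 in MEF. Both probes ranked the cell types alike, with ciNPC between NPC and MEF. The ciNPC mean was 38.5% of MEF by the leading probe and 26.5% by the other, and the leading probe spread more between ciNPC arrays (SD 0.50 against 0.12, n = 3). The excess of ciNPC over NPC was 1.82 log2 units by the leading probe, 1.48 after quantile normalisation and 0.79 with normexp correction and quantile normalisation together. By the other probe ciNPC were 2.14-fold above NPC, but within 2-fold under these settings (0.69 and 0.47 log2 units).

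S100a3, a cysteine-rich member known from the hair follicle, and S100a13, which takes part in the release of Fgf1 from cells, both lie in the cluster. The S100a3 probe (chr3:90406396-90406455, mm9) gave levels of -2.65, -2.60 and -2.35 in ciNPC p13 replicate 1, p13 replicate 2 and p5, against -3.71 in NPC and -1.89 in MEF. The ciNPC arrays lay between NPC and MEF without overlap. Their mean was 1.18 log2 units above NPC, but 0.60 after quantile normalisation and 0.05 with normexp correction and quantile normalisation together. The S100a13 probe (chr3:90328442-90328501, mm9) gave 1.89, 1.88 and 1.87 in ciNPC, against 1.62 in NPC and 3.38 in MEF. The ciNPC arrays were nearly equal to each other and much closer to NPC than to MEF, with 35.4% of the MEF signal in ciNPC and 29.4% in NPC.

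S100a16, a widely expressed member, was read differently by its probes. The leading probe (chr3:90346529-90346588, mm9) gave levels of 2.27, 2.11 and 2.27 in ciNPC p13 replicate 1, p13 replicate 2 and p5, against 2.62 in NPC and 2.74 in MEF. The other probe (chr3:90346875-90346934, mm9) gave 1.72, 1.64 and 1.21 in ciNPC, against 2.08 in NPC and 3.56 in MEF. Both placed ciNPC lowest, but they disagreed on the size of the difference from MEF. By the leading probe ciNPC had 69.7% and NPC 91.8% of the MEF signal, and by the other 24.3% and 35.8%.

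S100b lies outside the cluster, on chromosome 10 (chr10:75723783-75723842, plus strand, mm9). Its probe gave levels of -1.51, -1.80 and -1.38 in ciNPC p13 replicate 1, p13 replicate 2 and p5, against -1.60 in NPC and -0.68 in MEF. MEF was highest, and the NPC value lay within the ciNPC range. The ciNPC mean was 54.2% and the NPC value 52.8% of MEF. The astrocyte markers as a list ran the other way, with a summed level of 185, 173 and 169 in ciNPC, against 248 in NPC and 5.97 in MEF, and 6 of 8 passed as higher in ciNPC than in MEF (limma, 1 probe per gene), where 14.8% of all genes did. Gfap and Aqp4 did not pass, with differences of 1.11 and -0.98. The sum is carried by the brightest gene, Sparcl1, at 7.01, 7.02 and 6.98 in ciNPC, 7.55 in NPC and 1.26 in MEF. The median level of the list was 1.32, 1.11 and 1.34 in ciNPC, against 1.40 in NPC and -1.32 in MEF.

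**Figure D2:**
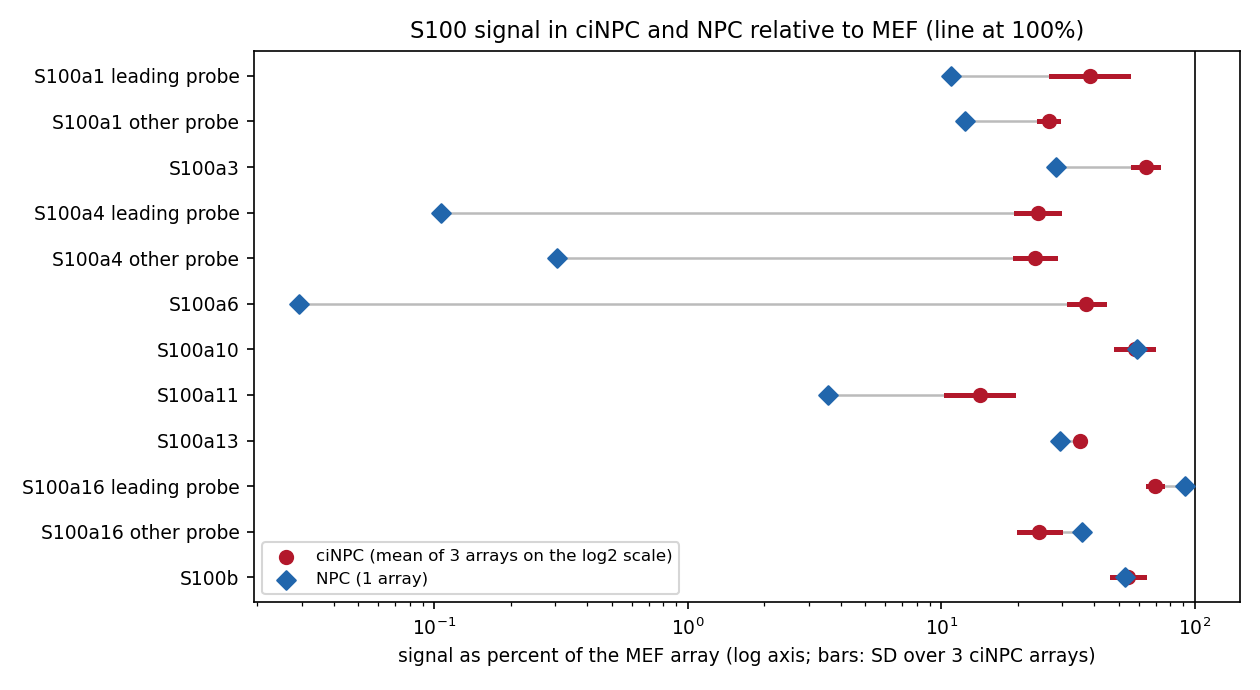
Signal as a percent of the MEF array, on a log axis, for each of the 12 member probes; circles are the ciNPC mean of 3 arrays on the log2 scale with bars of 1 SD, diamonds are the NPC array, and the vertical line marks MEF itself. NPC lies between 0.0292% for S100a6 and 91.8% for the leading S100a16 probe, and ciNPC between 14.2% for S100a11 and 69.7% for the leading S100a16 probe.

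By the threshold applied to all probes (limma, Benjamini-Hochberg adjusted p under 0.05 and at least 2-fold), 7 of 12 member probes were lower in ciNPC than in MEF, where 11.3% of all probes tested passed as lower. Against NPC, 4 of 12 were higher in ciNPC (both S100a4 probes, S100a6 and S100a11), where 2.74% passed as higher. Between NPC and MEF, 6 of 12 were at least 4-fold lower in NPC, where 7.52% were. Nothing is read from these shares, because the members were chosen on the same contrasts.

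Of the probes with an adjusted p under 0.05 (limma) between passages, the p13 mean of S100a11 was 0.75 log2 units below p5, S100a4 0.47 (leading probe) and 0.44 below, and S100a6 and S100a10 0.40 below each, whereas the other S100a16 probe was 0.47 above. The leading S100a1 probe was 0.63 above (limma adjusted p 0.523), and its p13 arrays differed by 0.69 from each other. None of the 12 reached 2-fold, so 0 passed by limma, where 0.879% of all probes did. At an adjusted p under 0.05 with any fold, 6 of 12 passed, where 7.00% of all did, and at an unadjusted p under 0.05 the count was also 6, where 19.1% were. Both p13 arrays read below p5 for 7 of 12 probes, where 30.5% of all probes did. Nothing is read from these counts or from the members' p-values between passages, because the members were chosen with these levels known. The median shift of all probes tested was 0.118, toward p13. This fit had 1 residual degree of freedom, and the adjusted p of S100a11 was 5.9e-06 in limma with an intensity trend, 0.135 after quantile normalisation and 0.679 without the trend, so these passage calls rest on the scaling and the variance model. The fibroblast markers had a median difference of -0.44 between p13 and p5 over 12 genes. They ranged from -0.91 (Lum) to -0.29 (Col1a1), all lower in p13 and all under 2-fold. Their part in the S100 differences was not tested.

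Annexins, calcium-dependent membrane-binding proteins, are the best known targets of the family. For this and the following lists each gene was read by its brightest probe. The lists were chosen with earlier results of these data known, so nothing is read from their counts and p-values. Of 11 annexins tested, 7 were higher in ciNPC than in NPC and 0 lower (median 1.56, against -0.13 over all 16083 genes, of which 4.33% were higher and 0.0311% lower). Against MEF, 6 were lower and 0 higher (median -1.35, against -0.09 over all genes, of which 14.8% were lower and 14.8% higher). Anxa1, the partner of S100a11, gave levels of 5.87, 5.87 and 6.61 in ciNPC p13 replicate 1, p13 replicate 2 and p5, against -2.69 in NPC and 7.04 in MEF. It was higher in ciNPC than in NPC by 8.80 log2 units (SE 0.29, limma adjusted p 1.72e-05), with -0.92 against MEF, under 2-fold. Anxa2, which pairs with S100a10, gave 6.99, 6.98 and 7.31 in ciNPC, against 4.43 in NPC and 8.44 in MEF, and was higher than in NPC by 2.67 (SE 0.17, limma adjusted p 0.000275). Its partner S100a10 differed from NPC by -0.03 in the same cells. Anxa8 was not well above background in NPC and was at least 97.5-fold higher in ciNPC. Anxa4, Anxa5, Anxa7 and Anxa3 were also higher than in NPC, by 2.39, 2.17, 1.56 and 1.39, whereas Anxa6 differed by -0.13. Without the intensity trend 2 of the 11 passed against NPC.

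Of 22 other binding partners tested, 7 were higher and 6 lower in ciNPC than in MEF, and 1 was higher and 0 lower than in NPC. That gene was Ahnak, which encodes the giant scaffold held at the membrane by S100a10 and annexin A2. Over all 16083 genes, 14.8% were higher and 14.8% lower than in MEF, and 4.33% higher and 0.0311% lower than in NPC. Ahnak gave 4.65, 4.54 and 5.02 in ciNPC p13 replicate 1, p13 replicate 2 and p5, against -1.71 in NPC and 6.65 in MEF, a difference of 6.45 from NPC (SE 0.20, limma adjusted p 1.33e-05). Between NPC and MEF the S100a6 partner gene Cacybp ran opposite to S100a6, and in ciNPC it lay near NPC, whereas S100a6 lay near MEF. Cacybp gave 5.28, 5.12 and 5.49 in ciNPC, against 5.63 in NPC and 3.24 in MEF. It was higher than in MEF by 2.06 (limma adjusted p 0.00021) and differed from NPC by -0.33. The S100a4 target Myh9, the heavy chain of non-muscle myosin IIA, differed from MEF by -1.49 (limma adjusted p 0.000239) and differed from NPC by 0.62. Fgf1 and Syt1, which act with S100a13 in the release of Fgf1, were higher than in MEF by 6.66 and 6.54, with -0.64 and -0.39 against NPC. The S100b target Gap43, a growth cone protein, was higher than in MEF by 6.90.

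Of 6 receptor genes tested, Erbb4 was at least 19.7-fold higher in ciNPC than in MEF, where it was not well above background, and Alcam, Bsg and Sdc1 were lower. Alcam, a cell adhesion protein, was the 1 gene higher than in NPC, by 3.17 (SE 0.28, limma adjusted p 0.0014). Ager, the receptor for advanced glycation end products, was well above background on 2 of the 5 arrays and did not pass in either comparison. For the receptors and the next list, the shares over all genes were 14.8% higher and 14.8% lower than in MEF. Against NPC they were 4.33% higher and 0.0311% lower. Of 33 other EF-hand genes tested, 4 were higher and 9 lower in ciNPC than in MEF, and 4 were higher and 0 lower than in NPC. The 4 higher than in NPC were Myl9 (6.37), Actn1 (4.74), Rcn3 (2.75) and Actn4 (1.11), of which Myl9 encodes a myosin light chain and Actn1 and Actn4 encode actinins. Between p13 and p5, 0 genes of these lists passed, against 0.721% of all genes.

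**Figure D3:**
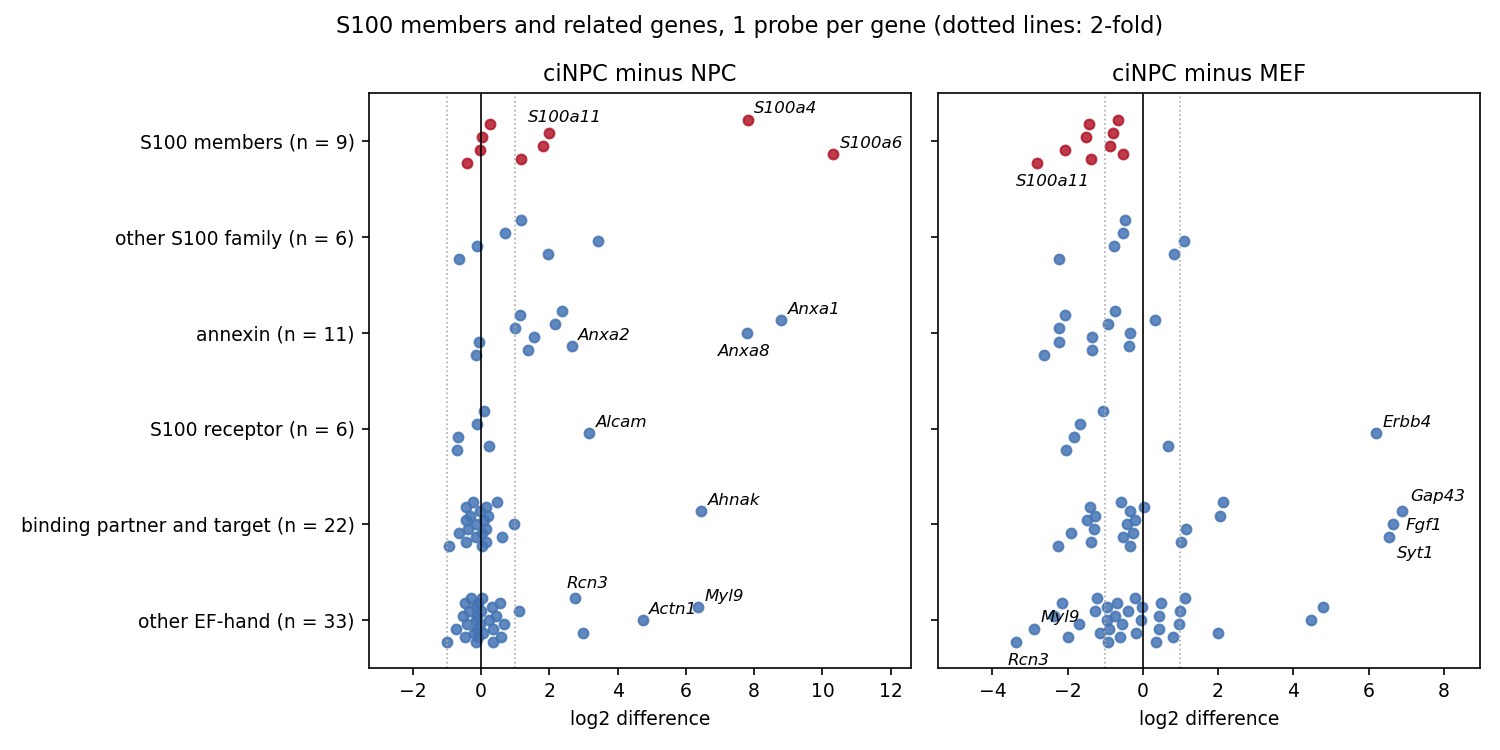
Log2 difference of ciNPC from NPC (left) and from MEF (right) for the S100 members and 5 related gene lists, 1 point per gene; dotted lines mark 2-fold, vertical scatter has no meaning, and values of genes dim in NPC or MEF are as measured. S100a6 at 10.32, Anxa1 at 8.80 and S100a4 at 7.81 lie far to the right against NPC, and S100a11 at -2.82 is the lowest member against MEF.

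The members apart from S100b lie between positions 90314959 and 93368496 of chromosome 3 (mm9), a span of 3053.5 kb. It also holds 51 other named genes on the array, mostly of the skin barrier. This count leaves out the other S100 genes named below but includes S100a7l2, which was well above background in MEF only. Of the 51 genes, 27 were below background on every array and 21 were tested. In ciNPC, 1 was higher than in MEF (Lor) and 2 lower (Lce1a2 and Sprr2k), and 3 were higher than in NPC (Crct1, Lce1i and Sprr2k), each of them not well above background in NPC. Sprr2k was at least 10.2-fold higher than in NPC. Among all genes, 14.8% were higher and 14.8% lower than in MEF, and 4.33% were higher than in NPC. The other S100 genes on the array (S100a2, S100a5, S100a8, S100a9, S100a14 and S100g among those tested) were well above background on at most 3 of 5 arrays, and 0 of 6 passed against MEF or NPC by limma. S100a9 was well above background on 2 of the 5 arrays, those of ciNPC p5 and MEF. S100a7a and S100z were below background on every array.

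Genes with the pattern most like each member were sought among 14869 genes by the root mean square distance of centred log2 levels over the 5 arrays. For S100a6 these were Inhba, Col1a1 and Acta2, which encode an activin subunit, a collagen chain and smooth muscle actin. For S100a4 they were Cxcl12, Snai1 and Thbs1, a chemokine, a transcription factor of mesenchymal cells and a matrix glycoprotein. Inhba, Col1a1, Cxcl12 and Snai1 were not well above background in NPC. Their distances and ranks rest on the NPC value as measured, which is uncertain. Acta2 (distance 0.375) and Thbs1 (0.131) were above background on all 5 arrays. Thbs1 gave 5.27, 5.21 and 5.87 in ciNPC p13 replicate 1, p13 replicate 2 and p5, against -2.10 in NPC and 7.67 in MEF. S100a11 was nearest to Eml2 (0.112), Serping1 (0.130) and H6pd (0.131). Nearest to S100a10 were Anapc4, Cars and Pxylp1, to S100a13 Gpa33, Myo1e and Lgmn, and to S100a16 Mbd6, Zdhhc4 and Emc2. S100a1 was nearest to Fam83h, Rhof and Wnt11, S100a3 to Gfra3, Ugdh and Ston1, and S100b to Dynlt3, Dpp3 and Ino80c. Gfra3 was not well above background on the array of ciNPC p13 replicate 2. Among the members, S100a10 and S100b were nearest to each other, at 0.146.

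**Figure D4:**
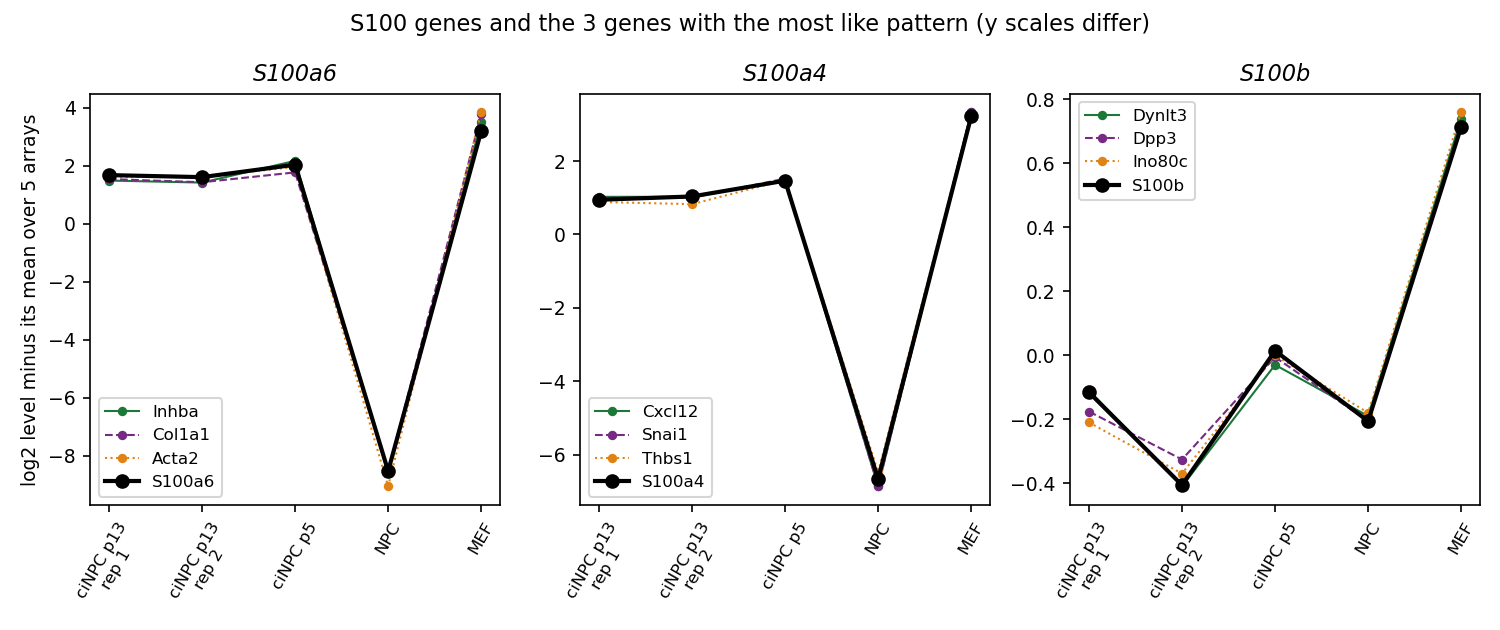
Log2 level minus its mean over the 5 arrays for S100a6, S100a4 and S100b (black) and the 3 genes nearest to each, with a y scale per panel. The curve of Thbs1 lies 0.131 log2 units (root mean square) from S100a4 and that of Acta2 0.375 from S100a6; the NPC points of Inhba, Col1a1, Cxcl12 and Snai1 are measured values not well above background.

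The fibroblast markers were set beside the members on the same scale, as a percent of MEF. All 12 were higher in ciNPC than in NPC, where 4.33% of all genes were, and 11 were lower than in MEF, where 14.8% were. Their ciNPC signal ranged from 2.96% to 55.9% of MEF, with a median of 10.3%. The smooth muscle genes Acta2, Tagln, Cnn1 and Myh11 stood at 23.1%, 33.5%, 6.98% and 13.0%. S100a6 at 37.3% and S100a4 at 23.9% lay in the upper part of the fibroblast marker range and S100a11 at 14.2% near its median. By leading probe, S100a13 at 35.4%, S100a1 at 38.5% and S100b at 54.2% also lay in the upper part. S100a10 at 57.9%, S100a3 at 63.9% and S100a16 at 69.7% lay above the range. The other probes of S100a1 and S100a16 gave 26.5% and 24.3%. The part of these markers in the S100 levels was not tested.

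Promoters are shown for the members with the clearest separation, as the 250 bases before the start of the gene in RefSeq (GRCm38.p6), with motif matches in capitals. 12 promoters of 8 members were matched. The S100a4 stretch (chr3:90603520-90603769, plus strand) holds TATAAA, which 12.4% of 32851 promoters hold on either strand. The S100a11 stretch (chr3:93520246-93520495, plus strand) holds the AP-1 motif TGANTCA at 2 places, and 6.75% of promoters hold it. No motif searched was found in the S100a6 stretch (chr3:90612644-90612893, plus strand).
S100a4: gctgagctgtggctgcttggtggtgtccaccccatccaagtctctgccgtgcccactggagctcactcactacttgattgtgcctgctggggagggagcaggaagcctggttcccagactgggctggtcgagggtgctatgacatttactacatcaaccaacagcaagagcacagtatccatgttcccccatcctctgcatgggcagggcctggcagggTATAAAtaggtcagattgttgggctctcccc
S100a11: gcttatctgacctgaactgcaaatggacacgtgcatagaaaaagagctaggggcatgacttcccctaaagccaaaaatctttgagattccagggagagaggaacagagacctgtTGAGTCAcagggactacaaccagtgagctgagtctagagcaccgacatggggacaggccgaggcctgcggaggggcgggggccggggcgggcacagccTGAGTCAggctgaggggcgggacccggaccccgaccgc
S100a6: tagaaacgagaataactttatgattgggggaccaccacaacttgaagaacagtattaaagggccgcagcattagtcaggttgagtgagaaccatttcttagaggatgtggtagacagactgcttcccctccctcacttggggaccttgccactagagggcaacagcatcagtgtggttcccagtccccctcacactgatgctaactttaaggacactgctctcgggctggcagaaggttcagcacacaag
The other motifs searched on both strands were GGAATG for TEAD, ACAAAG for SOX and the SRF CArG box. The TEAD, SOX and TATA motifs each occurred in 1 S100a3 promoter, and an AP-1 match in 1 S100a16 promoter, against 12.6% of all promoters for TEAD and 16.5% for SOX. The CArG box was in 0 of the 12, against 1.47% of all promoters. The starts of S100a1 and S100a13 lie 105 bases apart and run in opposite directions, and the patterns of these neighbours were 0.685 log2 units apart.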

How the data were processed

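RNA of 5 samples was labelled with Cy3 and hybridised to single-colour 60-mer Agilent arrays designed on mm9, per the file headers. The authors used Agilent Feature Extraction 10.7.1.1 for spot extraction, per the submitters' processing notes, and the deposited processed signal is an intensity, background-subtracted per the file headers and left unscaled across arrays. Log2 values of the same arrays stand in a deposited value table (median 5.644 in each column), used as an alternative; its scale and centring fit quantile normalisation, which is not given in the sources used here.

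Control and outlier spots were left out, log2 intensities were scaled to each array's 75th percentile, and spots were averaged per probe. Of 55681 probes, 29184 were named, 26582 by accession (GRCm38.p6, for names only), and 35611 were tested, those that all arrays of 1 or more groups showed well above background. limma 3.58.1 (R 4.3.3; lmFit, eBayes with an intensity trend) fitted 3 cell types (2 residual degrees of freedom) and 4 groups (1). A lone array was assumed to vary like the others. NPC against MEF has no test and a limit of 4-fold. A fold against a group under background is a bound from the lowest signal well above background.

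Members and gene lists were chosen with earlier results of these data known. The named genes were all members, list members past the threshold or stated partners, and the 3 nearest genes per member. Alternatives were normexp with quantile normalisation, another percentile, quantile normalisation, the value table, other filters, 1 probe per gene, no trend, and each ciNPC array left out. The script was tested on simulated data. Protein sequences were not used here.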

Additional observations from a re-analysis of the deposited data

How the results depend on the processing

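Of 456 member differences under alternatives, 443 kept their sign, 381 moved by less than 1 SD of the ciNPC arrays, and 0 called differences reversed. The 13 that changed sign were small ones of S100a10 and S100b against NPC and of S100a1 (other probe) and S100a16 (leading probe) between passages. Of 217 counts of calls, 180 stayed within 1.5 times. Probes passing against MEF numbered 8473 and genes 4923 when 1 probe per gene was fitted, and leaving out 1 ciNPC array gave 7468 to 10504. Against NPC 994 probes passed, with 579 after quantile normalisation, 574 in the authors' table, 589 among probes above background on all arrays, 338 without the variance trend, and 1230 to 1636 with 1 ciNPC array left out. Between passages 313 passed, with 178 under normexp with quantile normalisation, 3 after quantile normalisation, 3 in the authors' table, 122 above background on all arrays, 92 with 1 probe per gene and 0 without the trend. NPC and MEF were 4-fold apart for 5246 probes, with 2618 under normexp, 2918 above background on all arrays and 2971 with 1 probe per gene. For the other S100 genes against MEF, 1 passed under normexp, quantile normalisation, the authors' table and no trend, and against NPC leaving out an array gave 0 to 1. Against NPC and without the trend, 2 annexins, 0 receptors and 2 other EF-hand genes passed. Among binding partners against NPC 2 passed under normexp and with the other percentile, and 1 to 3 with an array left out. Of the chromosome 3 neighbours, 5 passed against MEF under normexp, quantile normalisation and the authors' table, and 2 to 6 with an array left out. Against NPC 1 passed under normexp, quantile normalisation, the authors' table and no trend, 0 above background on all arrays, and 3 to 5 with an array left out. The stricter filter and 1 probe per gene test fewer probes by construction, and otherwise the cause was not tested. No paired analysis was possible because MEF, NPC and ciNPC p5 had 1 array each and the labels name no pairing of samples. Slide as a block could not be fitted, and p13 against p5 could not be tested with an array left out. Brightness over background limits the dim probes of S100a1 and S100a3. It also limits the NPC readings of S100a6 (-2.82) and S100a4 (-3.37 and -2.46), where the lowest NPC signal well above background was -4.44. The folds over NPC, percentages and positions of these 2 genes rest on those readings.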
